A study of Ovis aries with 12 samples.

Results

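The baseline miRNAs of fetal pulmonary artery endothelium from sham-operated lambs were described from the 6 control libraries, which are 6 of the 12 libraries of a study of persistent pulmonary hypertension of the newborn (PPHN) in lambs. Every library labelled as a control was used, and none from lambs with PPHN, so no disease comparison is made here. The control lambs (Ovis aries) had sham surgery, and the labels place the fetal surgery of the study at about 125 days of gestation. Endothelial cells came from the main pulmonary artery, were freed with collagenase and selected with beads carrying a CD31 antibody, and were grown in DMEM with serum to passages 2 to 5 before total RNA was made into Illumina TruSeq small RNA libraries. These are therefore cultured, bead-selected cells and not artery wall. Whether the 6 cultures stem from 6 different animals is not stated in the labels, and part of the spread between libraries may therefore be technical.

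A miRNA is cut from a hairpin precursor, and either strand of the hairpin stem, the 5p arm or the 3p arm, can be loaded into an Argonaute protein and guide it to target mRNAs. Targets are recognised mainly through the seed near the 5′ end of the guide, and miRNAs with like sequences are grouped into families. In endothelium, miR-126 is the best known lineage-enriched miRNA and supports vessel integrity, and miR-143 and miR-145 are best known from vascular smooth muscle.

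Raw read counts were available for 470 entries named after miRNAs of many species. They were joined into 287 families by dropping the species prefix, the arm, the copy number and the letter, so that let-7a and let-7f both count as let-7. The libraries held between 4101316 (control 2) and 11171643 (control 4) counts over these entries, and between 282 and 287 families had at least 1 count in a library. Shares below are percentages of the counts listed for a library. They are shares of counted reads and not of molecules. Levels are CPM, the counts scaled to a common total of listed counts per library, after TMM scaling between the libraries. For the 15 most abundant families the half-width of the exact (Clopper-Pearson) 95% interval was at most 1.85% of the share in each library, except for miR-126 in control 2. These intervals cover counting error only.

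The libraries did not all carry the marker of the labelled cell type at a like level. The miR-126 family held 6.51% of the counts in control 1, 1.99% in control 3, 1.21% in control 4, 13.0% in control 5 and 4.09% in control 6. In control 2 it held 0.0212% (exact 95% interval 0.0198% to 0.0227%), or 870 counts. The mouse-named miR-126b held 95.6% of the family's counts on average, and miR-126 without a letter 4.36%. Without a letter, miR-126 was likewise lowest in control 2, at 11.0 CPM. Control 2 thus stood apart from the other 5 control libraries in the defining endothelial miRNA, and the main counts and the widest ranges in which it was an extreme are also given without it. In bulk RNA, fewer cells of a type and less of an RNA per cell cannot be told apart.

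Counts were concentrated in few families. The first was miR-21, a miRNA abundant in most cultured cells and known for responses to injury and growth signals, with 22.3%, 18.2%, 16.1%, 18.0%, 17.1% and 14.7% of the counts in controls 1 to 6. Its mean was 17.7% ± 2.59 (SD, n = 6), and it ranked first or second in every library. The second by mean share was miR-143, with 18.0%, 0.273%, 23.5%, 0.477%, 0.958% and 26.4% in controls 1 to 6. Its mean of 11.6% ± 12.4 describes none of the libraries: miR-143 was first in controls 3 and 6, second in control 1 and as low as rank 35 elsewhere.

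The let-7 family, known for restraining growth and stem cell genes such as LIN28 and RAS, held 8.39%, 17.2%, 8.02%, 14.1%, 10.8% and 7.76%. Its mean share was 11.1% ± 3.86, and the highest values were those of controls 2 and 4. The next places by mean share were taken by miR-22 (8.33% ± 2.15), miR-3600 (8.27% ± 2.14) and miR-92 (5.98% ± 2.26). miR-92 belongs to the growth-promoting miR-17-92 cluster, and its member miR-92a is known to restrain vessel growth. The place of miR-3600 is uncertain, because its only entry stayed within 10% of the sheep miR-22-3p entry in each control library, and how reads that match both were divided is not given in the sources used here. Families of rank 7 to 10 were miR-126 (4.48% ± 4.78), miR-27 (4.15% ± 0.988), miR-26 (3.75% ± 0.917) and miR-148 (3.24% ± 0.957). miR-27 comes from the miR-23, miR-27 and miR-24 clusters, which regulate sprouting, while miR-26 acts on BMP signalling in vessels and miR-148 is known for targeting DNA methyltransferases.

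Ranks 11 to 15 were held by miR-30 (2.38% ± 1.02), miR-28 (1.60% ± 0.139), miR-125 (1.06% ± 0.283), miR-191 (1.03% ± 0.275) and miR-181 (0.856% ± 0.351). The miR-30 family is known in endothelium for acting on the Notch ligand DLL4, and miR-181 for damping NF-kB signalling. Most neighbours in this order did not differ beyond their spread over libraries. Among the first 13 families, the mean log2 ratio to the next family exceeded its SD for let-7 over miR-22 (0.38 ± 0.34), for miR-148 over miR-30 (0.50 ± 0.49) and for miR-28 over miR-125 (0.63 ± 0.35). The same held for miR-22 over its near-copy miR-3600, at a log2 ratio of 0.01.

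**Figure D1:**
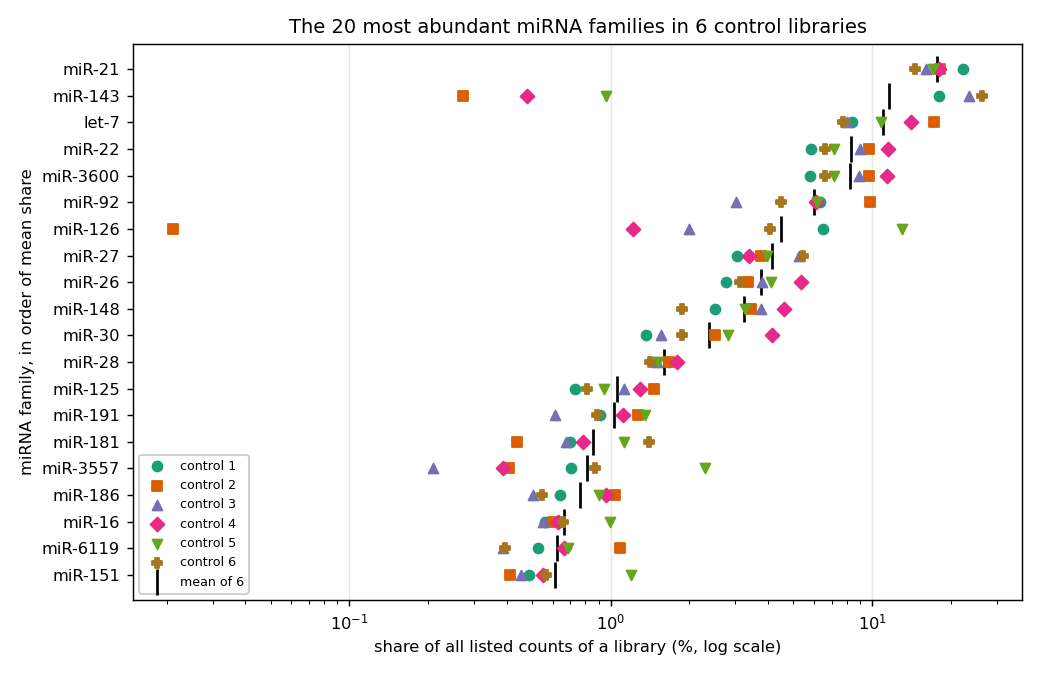
Share of the listed counts of each control library (%, log axis) for the 20 families with the highest mean share, 1 symbol per library and a bar at the mean of the 6. The symbols of miR-21 lie between 14.7% and 22.3%, while those of miR-143 run between 0.273% and 26.4% and those of miR-126 between 0.0212% and 13.0%.

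The 10 families with the highest mean share held 81.5%, 75.6%, 83.4%, 76.3%, 73.7% and 81.0% of the counts in controls 1 to 6, on average 78.6% ± 3.88. Each library reached 50% of its counts with 4 or 5 families, 90% with 17 to 24 and 99% with 72 to 84. The effective number of families, the exponential of the Shannon entropy of the shares, was 18.7 ± 2.28 and ran between 16.3 in control 3 and 22.7 in control 5. Without control 2 it was 18.6. There were 7 families in the top 10 of every library, namely miR-21, let-7, miR-22, miR-3600, miR-92, miR-27 and miR-26. A further 5, miR-143, miR-126, miR-148, miR-30 and miR-28, entered the top 10 of some libraries, which brings the number to 12. The sum of miR-21 and miR-143 was 40.3%, 39.5% and 41.02% of the counts in controls 1, 3 and 6, against 18.5%, 18.5% and 18.1% in controls 2, 4 and 5.

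**Figure D2:**
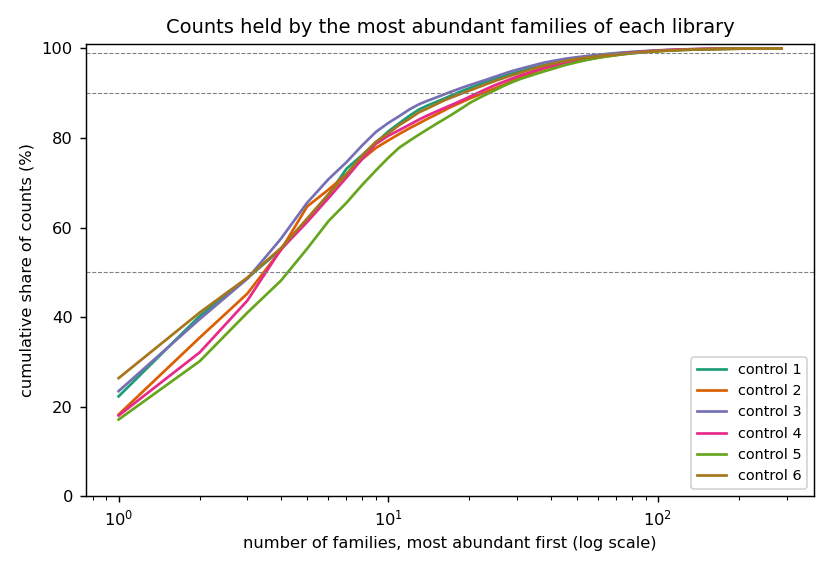
Cumulative share of counts (%) against the number of families, most abundant first (log axis), with 1 line per control library and dashed lines at 50%, 90% and 99%. Each line passes 50% with 4 or 5 families, and control 5, the lowest line, needs 24 families to reach 90%.

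Within families, a few members carried nearly all counts. The members named with a letter below were chosen after their values were seen. Of the let-7 counts, let-7f held 48.2% ± 6.39, let-7i 23.4% ± 10.3 and let-7a 16.7% ± 3.47. The miR-27 counts were almost wholly those of miR-27a, and miR-92a held most of miR-92. Of the miR-30 counts, miR-30a held 59.1% ± 9.30, and miR-26 was divided between miR-26a (47.7% ± 0.845) and the cow-named miR-26c (44.4% ± 1.00). The counts of these 2 entries stayed within 10% of each other in every library, so their division is uncertain.

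Members of 1 family did not vary alike between the libraries. miR-30d was at 6782, 7308, 7433, 7093, 7169 and 6820.1 CPM in controls 1 to 6, which made it the steadiest of the 139 names with letter that averaged at least 100 CPM (highest over lowest 1.096). miR-30a was at 6735, 12163, 11247, 27055, 14986 and 12509 CPM, a 4.02-fold range with its highest level in control 4. Thus miR-30a exceeded miR-30d in all but control 1.

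In the let-7 family, let-7a averaged 17362 ± 1529 CPM and differed at most 1.26-fold between libraries, and let-7b, let-7d, let-7f and let-7g also stayed within 2-fold. let-7i was at 20983, 58278, 18248, 37798, 11208 and 14934 CPM in controls 1 to 6, and let-7c at 383, 1958, 426, 2465, 491 and 338 CPM. Both were highest in controls 2 and 4, and their ranges of 5.2-fold and 7.29-fold set them apart from the other members averaging at least 100 CPM. The less abundant let-7e (90.1 ± 119 CPM) also varied widely. It held 0.363% of the let-7 counts in control 1 and 0.0305% to 0.0451% in the other libraries. There were 16 families with at least 2 members above 100 CPM, and 4 of these (let-7, miR-30, miR-125 and miR-3596) combined a member within 2-fold with one beyond it. miR-3596 carries rat names, and its member miR-3596b stayed within 10% of let-7d in every library, so these counts may be shared. Near-identical members differ by few bases, and how the authors' counting divided reads among them is not given in the sources used here.

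Arms were read from the names. They stated 5p for 128 entries and 3p for 135, and gave no arm for 207, which is common where only 1 product of a hairpin is listed. Entries with a stated arm held 27.2%, 31.7%, 22.1%, 31.9%, 40.1% and 23.9% of the counts in controls 1 to 6. Of these, the 5p share was 17.9%, 22.6%, 18.2%, 25.9%, 23.6% and 21.8%, so that 3p counts were higher in 6 of 6 libraries. The mean was 21.7% ± 3.13 for 5p against 78.3% ± 3.13 for 3p, a ratio of 5p to 3p of 0.279 ± 0.0511 (exact two-sided sign-flip permutation test, p = 0.03125, the smallest that the 64 sign assignments of 6 libraries allow). Without control 2 the 5p share was 21.5%. A few families held much of the 3p total, so the test speaks for the total and not for hairpins in general. In control 1, miR-126 and miR-92 held 298020 and 295784 of 1049052 3p counts. In control 2 they held 833 and 400910 of 1004521. The miR-22 family, carried by its miR-22-3p entry, held 275043 counts in control 1 and 400610 in control 2. In control 4 it held 1287933 counts, where all 3p counts came to 2639707. Most of the miR-126 part stood under the mouse name miR-126b-3p, whose place as the 3p arm of miR-126 is uncertain.

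That ratio describes the minority of counts whose name states an arm. The families that lead the list, miR-21, miR-143 and most of let-7, have entries with no arm in the name. When 41 sheep names were given the arm generally known to be the abundant one, 84.8% ± 3.14 of the counts had an arm, and the 5p share became 47.0%, 58.5%, 38.7%, 58.3%, 52.1% and 38.1% in controls 1 to 6. The mean was then 48.8% ± 9.11 for 5p and 51.2% ± 9.11 for 3p, with 3p higher in 3 of 6 libraries (exact two-sided sign-flip permutation test, p = 0.6875). The 3 libraries with more 3p were controls 1, 3 and 6, those rich in miR-143, whose known abundant product is the 3p arm. The direction of the total thus depended on where the arms were taken from, and the list of 41 was made after the data had been seen.

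For single hairpins, 60 families had both arms listed with at least 10 counts of each arm summed over the libraries. Of these, 26 had more 5p counts in all 6 libraries, 22 more 3p counts in all 6, and 12 differed between libraries. Since a family can pair the 5p arm of one member with the 3p arm of another, arms were also paired under the same letter. Of 41 such names with at least 10 counts of both arms in every library, 21 had more 5p in all libraries, 13 more 3p in all, and 7 differed. The median SD of the log2 ratio over the 6 libraries was 0.37, while 19 of the 41 names had arms more than 10-fold apart on average.

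Among hairpins with a dominant 5p arm, miR-30a had log2 ratios of 5p to 3p of 3.80, 4.50, 4.72, 4.85, 4.94 and 4.78 in controls 1 to 6 (mean 4.60 ± 0.42). The lowest was that of control 1, which also had the least miR-30a. The log2 ratio was 6.82 ± 0.26 for miR-125a and 5.18 ± 0.48 for miR-99b. For miR-151 it was 1.30 ± 0.23, and the miR-151-5p entry is nearly duplicated by another one. The rat-named miR-3557 (8.05 ± 0.20) and the cow-named miR-6119 (7.43 ± 0.22) also had far more 5p than 3p.

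Among hairpins with a dominant 3p arm, miR-28 stood at −5.36, −5.45, −5.12, −5.29, −5.43 and −5.20 (mean −5.31 ± 0.13), one of the narrowest ranges measured. miR-222, which acts on the KIT receptor in endothelium, averaged −6.16 ± 1.06 and spread between −7.68 in control 4 and −4.63 in control 2. miR-214 was at −2.29 ± 0.11 and miR-140, best known from cartilage, at −3.46 ± 0.29. The SD was thus small both for a strongly and for a more weakly one-sided hairpin.

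Balanced hairpins accounted for most changes of the dominant arm. Names of this kind with at least 10 counts of each arm in every library were miR-126 (0.54 ± 0.36), miR-423 (0.26 ± 0.24), miR-1307 (0.62 ± 0.46), miR-424 (−0.17 ± 0.34), miR-455 (0.04 ± 0.35) and miR-324 (0.29 ± 0.37). Reads of miR-423 may be shared with the antisense miR-3184 (−4.77 ± 0.76), so its arm ratio is uncertain. The value for miR-126 pairs only the entries without a letter. The bulk of the 3p counts of that family stood under a mouse name, miR-126b-3p, and with it the family ratio was −5.26 ± 0.45. That arm is the one stated in the mouse name. Strand is not given in the sources used here, so whether these reads are the 3p product of the miR-126 hairpin is uncertain. The seventh was let-7e, with a log2 ratio of 3.47 in control 1 and between −2.17 and −1.58 in the other 5. Its 5p count was 1312 in control 1 against 28 to 178 in the others, whereas its 3p count in control 1, 118, lay within the range of the others, 90 to 535.

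**Figure D3:**
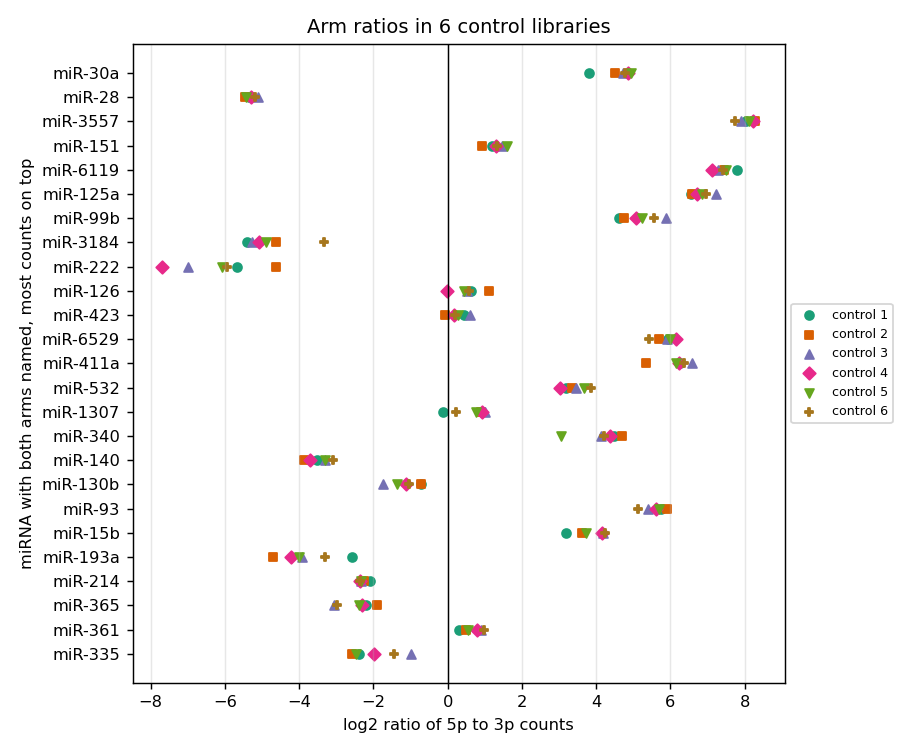
Log2 ratio of 5p to 3p counts in each control library for the 25 most counted names with both arms under the same letter and at least 10 counts per arm; the line at 0 marks equal arms. Symbols of 1 hairpin lie close together: miR-28 spans −5.45 to −5.12 and miR-30a 3.80 to 4.94, while miR-222 is the widest in view at −7.68 to −4.63.

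Constancy was judged for the 115 families that averaged at least 100 CPM. A family was called constant where its highest library was at most 2-fold above its lowest, and variable where it was at least 10-fold above. By these limits 38 families (33.0%) were constant and 22 (19.1%) variable, and 55 lay between. The median ratio of highest to lowest library was 2.68 over all 115. The median biological coefficient of variation (CV), from the edgeR dispersion, was 37.0%, against a median counting CV of 1.77%. With these families ordered by level and cut into 3 parts, the median ratio was 3.47 in the 38 least abundant, 2.77 in the middle 38 and 2.27 in the 39 most abundant.

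Among the constant families, miR-423 was at 1537, 1435, 1498, 1691, 1606 and 1269 CPM in controls 1 to 6, the narrowest range of all 115 (1.33-fold; 1506 ± 146 CPM, biological CV 9.80%). Human miR-3184 lies antisense to miR-423, so reads of the pair can be told apart only with strand, which is not given in the sources used here. The miR-3184 counts were higher and ranged more widely (3457 ± 617 CPM, 1.71-fold), so the narrow range of miR-423 depends on how such reads were assigned. miR-191, often used as a reference miRNA, was at 9931, 10622, 8096, 9988, 11397 and 9838 CPM (1.41-fold, biological CV 11.2%). Both remained within a narrow band in every library, control 2 included.

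Of the other families with the narrowest ranges, miR-197 had a ratio of 1.39, miR-186 of 1.43, miR-93 of 1.45 and miR-342 of 1.46. The cow-named families miR-2285 and miR-2284 had ratios of 1.34 and 1.42. Several of the most abundant families were constant as well: miR-28 (1.54), let-7 (1.67), miR-21 (1.69), miR-26 (1.78), miR-125 (1.88) and miR-22 (1.97). Together the 38 constant families held 52.3%, 68.5%, 52.7%, 70.4%, 55.8% and 45.7% of the counts in controls 1 to 6. The families next to the limit were miR-3600 and miR-130 (both 1.97) inside and miR-107 (2.04) and miR-92 (2.06) outside. For miR-130 this holds for the sum only, since its members miR-130b and miR-130a ranged 2.79-fold and 3.57-fold.

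The widest ranges were those of miR-2483 and miR-126. The cow-named miR-2483, with both arms listed, was at 155, 4.69, 7.06, 0.722, 619 and 109 CPM in controls 1 to 6, an 858-fold range that became 132-fold without control 4 and 214-fold without control 5. The miR-126 family was at 70994, 177, 26226, 10876, 109461 and 45299.8 CPM, a 617-fold range. Without control 2, miR-126 ranged 10.1-fold, between control 4 and control 5, and without control 5 it ranged 400.2-fold.

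miR-143 was at 195933, 2284, 308608, 4279, 8036 and 291975 CPM, a 135-fold range (72.1-fold without control 2). The values formed 2 sets with none between: controls 1, 3 and 6 high and controls 2, 4 and 5 low. Its partner miR-145, made from the same primary transcript, was at 110, 2.24, 244, 4.82, 3.26 and 235 CPM and was high in the same libraries. miR-143 counts exceeded those of miR-145 between 888-fold and 2468-fold (mean log2 ratio 10.41 ± 0.54).

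Other families were low in 1 or 2 libraries or high in 1 or 2. miR-31, known in vessels for lymphatic and inflammatory targets, was at 405, 854, 418, 405, 3.15 and 28.7 CPM, low in controls 5 and 6 (271-fold; 133-fold without control 2 and 29.8-fold without control 5). miR-149 was at 140, 737, 315, 286, 7.63 and 88.0 CPM, lowest in control 5 (96.6-fold, but 8.38-fold without control 5 and 41.3-fold without control 2). miR-1468 ranged 154-fold and was lowest in controls 2 and 4 (86.8-fold without control 2). miR-4454 ranged 144-fold with 700.5 CPM in control 3 and 245 CPM in control 6 against 4.87 to 8.99 CPM elsewhere (50.3-fold without control 3 and 84.0-fold without control 1). miR-6240 ranged 45.1-fold with 4759 CPM in control 6, but 7.50-fold without that library and 27.4-fold without control 2. In human, sequence listed as miR-4454 also matches transfer RNA.

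The 22 variable families had a median ratio of 28.8 and a median biological CV of 107%, and they held 27.4%, 1.66%, 26.7%, 2.44%, 16.6% and 32.8% of the counts in controls 1 to 6. Control 2 was the lowest library for 9 of the 22 and control 6 the highest for 10, whereas over all 115 families control 2 was lowest for 17 and control 6 highest for 13. At the limit, miR-378 (7.94) lay under it and miR-7641 (10.6) over it. With the scaling kept as it was, 13 of the 22 stayed at or above 10-fold whichever library was left out. The other 9, miR-149, miR-6240, miR-10, miR-218, miR-486, miR-3168, miR-4792, miR-7641 and miR-7857, went under 10-fold when a single library was left out. Of the 13, miR-2483 averaged 149 CPM with 619 CPM in control 5, and miR-4454 averaged 163 CPM with 700.5 CPM in control 3. The means of these families thus rest largely on 1 library. For miR-10 the ratio was 1.86 without control 1. miR-10, which lies in the Hox gene clusters, reached 20381 CPM in control 1, where the other 5 libraries held 1325 to 2465 CPM. Likewise miR-218 had a ratio of 2.45 without control 5, where it was at 17.2 CPM. With all libraries but control 2, scaled anew, 43 families were constant, among them 36 of the 38, and 24 were variable, among them 20 of the 22.

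**Figure D4:**
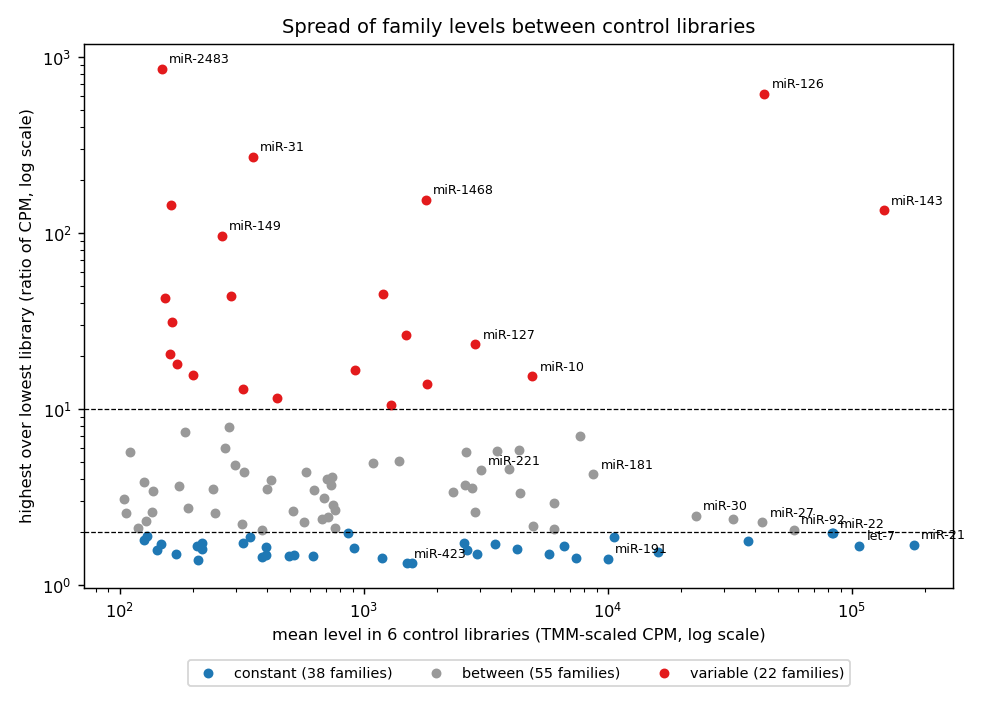
Ratio of the highest to the lowest control library (log axis) against the mean level in TMM-scaled CPM (log axis) for the 115 families averaging at least 100 CPM, with dashed lines at the limits of 2 and 10. The 38 constant families include miR-21 and let-7 at the abundant end, while miR-126 (617) and miR-143 (135) are both abundant and variable.

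The imprinted DLK1-DIO3 cluster, a large group of miRNA genes expressed from the maternal allele, varied as a block. Of 44 families on the list 36 were present, 4 averaged at least 100 CPM (miR-127, miR-411, miR-409 and miR-410), and all 4 were variable, where 19.1% of the 115 families were. The summed level was 6060.1, 534, 10033, 887, 8053 and 11190 CPM in controls 1 to 6. miR-127 alone was at 2586, 232, 5030.2, 437, 3500 and 5409 CPM. Over the 18 families averaging at least 10 CPM, the median log2 deviation from a family's own median was −3.42 in control 2 and −2.95 in control 4, and none of the 18 was above its own median in either. They share 1 locus and are not 18 separate measurements.

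**Figure D5:**
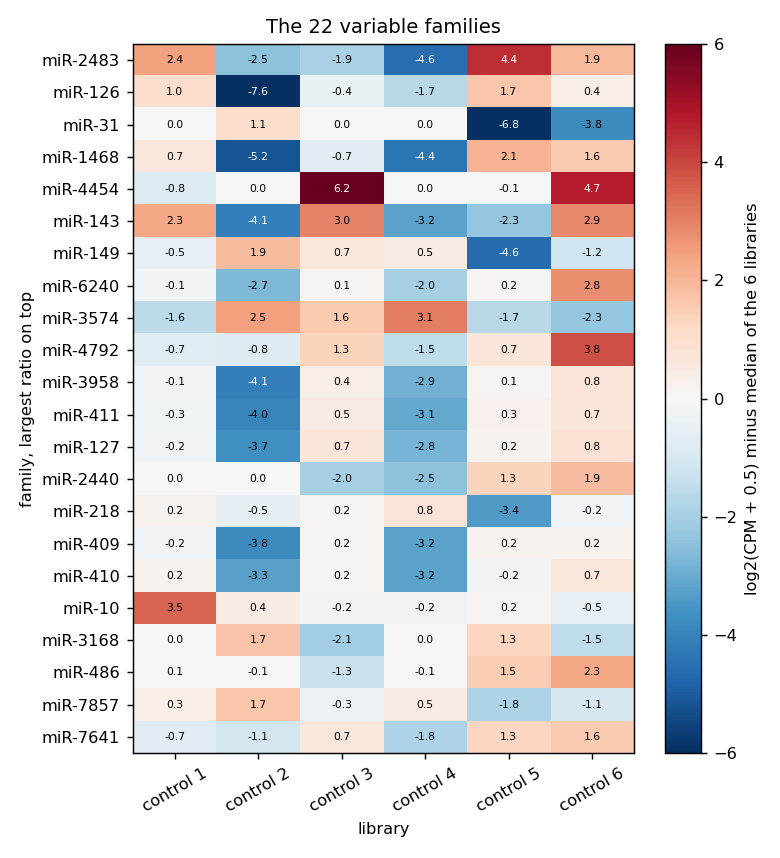
Heat map of the 22 variable families (down, widest range on top) in the 6 control libraries (across), coloured and numbered by log2(CPM + 0.5) minus the median of the 6 libraries. Controls 2 and 4 are low for miR-1468, miR-143 and the imprinted miR-127, miR-409, miR-410 and miR-411, and miR-10 is high in control 1 alone.

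The same pair of libraries differed in other ways. miR-210, the best known miRNA induced by HIF under low oxygen, was at 12.5, 178, 72.3, 219, 8.95 and 7.11 CPM in controls 1 to 6, highest in controls 2 and 4, where let-7i and let-7c were also highest. The rat-named miR-3574 reached 536 and 820.3 CPM in controls 2 and 4, and the others held 18.7 to 286 CPM. Over 213 families averaging at least 10 CPM, the Spearman correlation of levels across families was highest between controls 2 and 4 (0.953) and lowest between controls 2 and 6 (0.761). Families are not independent, and these values only describe the similarity of libraries that share most of their abundant families.

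Lists of miRNAs known from cell types gave the following picture. All 10 families of the endothelial list were present and averaged at least 100 CPM. None was constant, where 33.0% of the 115 were, and 3 were variable (miR-126, miR-31 and, through control 1 alone, miR-10), where 19.1% of the 115 were, with a median ratio of 4.80 against 2.68 for all. Their sum was 152807, 71438, 136453, 93215, 181744 and 150055 CPM in controls 1 to 6, lowest in control 2. The sum had the same order of libraries as miR-126 itself, but the part of miR-126 in it differed. By share of counts, miR-126 held 13.0% of the list's 21.7% in control 5. In control 4 it held 1.21% of 10.4%, and in control 2 it held 0.0212% of 8.54%. miR-27 held more than miR-126 in controls 2, 3, 4 and 6. Of single members in control 2, miR-27 was at 31446 CPM, near its lowest level, while miR-221 and miR-222 were at 5302 and 5672 CPM, each the highest of the 6 libraries. Several of its families are also abundant in other cell types.

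The smooth muscle list had 3 of 5 families present (miR-143, miR-145 and miR-133), and miR-1 and miR-490 were not analysed here. Its sum ran between 2310 CPM in control 2 and 308910 CPM in control 3 and was nearly all miR-143. Other smooth muscle transcripts cannot be read from small RNA, and the part that such cells have in the miR-143 levels was not tested. The fibroblast list had 5 of 5 families present and summed to 4701 to 13386 CPM, highest in control 3, where miR-199 reached 8721 CPM and the others held 1504 to 3925 CPM. Of its 4 families above 100 CPM, miR-152 was constant (1.58-fold).

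Of the markers of other cell types found among the entries, only miR-486 and miR-155 averaged at least 100 CPM, and many markers were not analysed here. Of the 5 epithelial families miR-200 was listed, at 395 CPM in control 4 and at most 4.89 CPM elsewhere. It had 0 counts in controls 1 and 3, where the floor of 3 counts corresponds to 0.696 and 0.493 CPM and the exact 95% interval reaches 0.856 and 0.606 CPM. Of the red blood cell list, miR-451 was at 0.963 to 10.4 CPM, and miR-486, which is also made in other cells, at 67.0 to 870 CPM. Of the leukocyte list miR-142, miR-223 and miR-150 were not analysed here, and miR-155, also known from activated endothelium, was at 1287 to 4357 CPM. The striated muscle list had only miR-133 (5.78 to 205 CPM), the neural list miR-9 and miR-128 (together 104 to 152 CPM), and the liver miRNA miR-122 was not analysed here. The part of any such cells in the differences between libraries was not tested.

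Among growth-related lists, 8 of 9 families on the list of the miR-17-92 cluster with its paralogs were present, and 6 averaged at least 100 CPM. Of these 2 (miR-93 and miR-106) were constant, where 33.0% of all 115 families were, none was variable, and the median ratio was 2.08. miR-17 was at 674 ± 171 CPM and miR-19 at 765 ± 184 CPM. The miR-15 family, which restrains the cell cycle, had 2 members above 100 CPM, miR-16 (6616 ± 1238 CPM) and miR-15 (342 ± 89.2 CPM), and both were constant, where 33.0% of the 115 families were. Of the p53-linked list miR-34 was constant (170.4 ± 29.0 CPM, 1.503-fold), and miR-192 and miR-194 were at 70.5 ± 11.2 and 98.8 ± 27.8 CPM.

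miRNAs whose genes are neighbours can share a primary transcript, and their counts could still differ widely. Outside the imprinted cluster the sheep gene table gave 6 neighbouring pairs. miR-23a lies beside miR-27a, and miR-27a was at 43014 ± 17143 CPM against 1394 ± 702 CPM for miR-23a, a 33.3-fold mean ratio. let-7a exceeded its neighbour let-7d 17.8-fold. miR-30d exceeded its neighbour miR-30b 15.6-fold in a ratio that hardly moved (log2 3.97 ± 0.14), both being constant. miR-106b exceeded miR-25 6.09-fold. The closest pair was miR-17 and miR-19b, with miR-19b 1.14-fold higher, followed by let-7c and miR-99a, with miR-99a 1.94-fold higher on average (log2 ratio of let-7c to miR-99a −0.95 ± 1.01). Pairs within the imprinted cluster ran between 1.03-fold (miR-543 and miR-495) and 356-fold (miR-433 and miR-127). Counts do not separate gene copies with the same mature miRNA, so an excess of let-7a may include its other genes.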

How the data were processed

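Small RNA of cultured pulmonary artery endothelial cells was sequenced by the authors, and the deposited values are raw read counts per miRNA entry, per the file headers. Per the submitters' processing notes, the tools included Trim Galore 0.2.5 and Bowtie 1.1.1. The genome build, miRNA reference, tool settings and treatment of reads matching several entries were not given in the sources used here. The p-values, q-values and log2 fold changes that the authors deposited per entry compare PPHN with control and were not used, nor were the 6 count columns of PPHN libraries. There were 0 per-sample columns that matched no sample. The totals cover the 470 listed entries and are not sequencing depth.

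Entries were joined into families by number. An entry with several names took the family of its sheep name, else the most frequent one (7 entries named several families). Near-duplicates, 6 entries with counts within 0.9 to 1.1 of another in every library, were kept. Levels are CPM after TMM scaling (edgeR 4.0.16, R 4.3.3; factors 0.760 to 1.20), and other values were computed in Python 3.11.15. Biological CVs are square roots of edgeR tagwise dispersions with an intercept and no shrinkage (prior degrees of freedom 0). Arm log2 ratios added 0.5 counts. A floor of 3 counts was 0.269 to 0.731 CPM before scaling; intervals and floors cover counting error only. No pair of libraries was a duplicate (lowest chi-square per degree of freedom 751). The dispersion and the limits on ratios were tested on simulated data.

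Neighbouring genes lie within 10000 bases in the sheep assembly ARS-UI_Ramb_v3.0, used only for this. Arms come from names. Families named are the 15 most abundant, the 8 most constant, the 8 most variable, abundant ones with both arms, and up to 3 per list; others were chosen after their values were seen. The members and lists were chosen with earlier results of these data known. Alternatives were RLE and no scaling, DESeq2 1.42.0 dispersions, other limits and filters, the letter kept, near-duplicates or several-family entries left out, sheep and cow names only, and each library left out.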

Additional observations from a re-analysis of the deposited data

Results flagged for a closer look

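For 61 families the library farthest from the other 5 was compared with the range of all 6, and 10 families had a library that stood apart by Dixon's criterion. Chance gives this in about 5% of groups with no selection, but the families include those named for their wide or narrow ranges, so that rate is no fair comparison here. The 10 are spread over all 6 libraries. In control 1, miR-10 reached 20381 CPM, and the other libraries lay at 1325 to 2465 CPM. In control 2, miR-615 reached 35.7 CPM, beside 0 to 1.69 CPM elsewhere. In control 3, miR-199 reached 8721 CPM (others 1504 to 3925 CPM), and miR-4454 reached 700.5 CPM (others 4.87 to 245 CPM). In control 4, miR-200 reached 395 CPM (others 0 to 4.89 CPM). In control 5, the levels were 619 CPM for miR-2483 (others 0.722 to 155 CPM), 517 CPM for miR-15 (others 277 to 335 CPM) and 489 CPM for miR-93 (others 338 to 391 CPM). In control 6, miR-6240 reached 4759 CPM (others 105 to 790.4 CPM) and miR-196 reached 84.0 CPM (others 17.9 to 34.5 CPM). miR-10, miR-196 and miR-615 all lie in Hox gene clusters, and each was high in a different library.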

How the results depend on the processing

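No paired analysis was possible because the control libraries are numbered 1 to 6 and no second group was compared. The joining of families by seed and an arm lookup in RefSeq were not run, since no mature sequences were used here. With sheep and cow names only, the share of miR-21 became 20.5%, that of the 10 top families 87.1% and the effective number 13.6, while miR-126 became 0.132%, miR-28 0.0451% and miR-125 0.354%, and 23 families were constant and 16 variable; with the letter kept, the 10 top names held 71.3% and the effective number was 24.2. Without scaling, 20 families were constant, and limits of 1.5 and 5 gave 11. Variable families numbered 52 at a mean of at least 10 CPM and 82 with no filter. The 5p share was 48.8% (p = 0.6875, exact sign-flip permutation test) with arms from general knowledge and 25.3% without the miR-126 family, both chosen after the data were seen. Leaving out each library in turn gave 16.8% to 18.3% for miR-21, 77.6% to 79.5% for the 10 top families, 17.9 to 19.2 effective families, 43 to 48 constant and 19 to 25 variable families, a median biological CV of 33.3% to 38.8% and a 5p share of 20.8% to 22.4%, where 5 libraries allow no exact p under 0.0625. By mean share miR-143 ranked 3rd without control 1 or 3 and 4th without control 6. With near-duplicates left out, miR-21 held 19.9% and miR-92 ranked 5th.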
